A study of Mus musculus with 230 samples.

Results

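The 9 genes described here, Mbp, Mobp, Mog, Mag, Cnp, Mal, Opalin, Ugt8a and Ermn, encode myelin and oligodendrocyte proteins. They were taken by name from the 43346 gene identifiers of a count table of 230 RNA sequencing libraries of mouse brain. All 9 were present, and all 9 passed the filter on low counts in every region. Their messenger RNA was followed across 6 regions of the reward circuitry and 6 conditions of cocaine exposure.

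The libraries came from 45 male C57BL/6J mice, an inbred strain with no transgene named in the labels; the animals' ages are not given in the sources used here. The mice gave themselves cocaine or saline. In the groups S24 (saline, 8 mice) and C24 (cocaine, 8 mice) tissue was taken after 24 h of withdrawal with no injection named. The other 4 groups had 30 d of withdrawal and were sampled 1 h after an injection. Their first letter gives the self-administered solution and their second letter the injection, so that SS (8 mice) and SC (8 mice) had taken saline, and CS (6 mice) and CC (7 mice) had taken cocaine. The regions were the basolateral amygdala (BLA), dorsal striatum (CPu), nucleus accumbens (NAc), prefrontal cortex (PFC), ventral hippocampus (vHipp) and ventral tegmental area (VTA), with 3 to 8 libraries in each region and condition. Each mouse gave at most 1 library per region.

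Oligodendrocytes wrap axons of the central nervous system in myelin, a compacted stack of plasma membrane that is rich in lipid and in a small set of proteins. The proteins that hold the stack together, those that face the axon, and the enzymes that make its lipids are transcribed at a high level in mature oligodendrocytes, under factors that include SOX10 and MYRF. White matter tracts hold many of these cells. In bulk tissue, fewer oligodendrocytes and less RNA per oligodendrocyte cannot be told apart.

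Mbp (ENSMUSG00000041607) encodes myelin basic protein, which zips the cytoplasmic faces of the membrane together, and Mobp (ENSMUSG00000032517) encodes another basic protein of compact myelin. Mog (ENSMUSG00000076439) lies on the outermost surface of the sheath, and Mag (ENSMUSG00000036634) on the innermost wrap, where it contacts the axon. Cnp (ENSMUSG00000006782) encodes a phosphodiesterase of non-compact myelin. Mal (ENSMUSG00000027375) and Opalin (ENSMUSG00000050121) encode membrane proteins of the sheath, and Ermn (ENSMUSG00000026830) encodes ermin, a protein of the oligodendrocyte cytoskeleton. Ugt8a (ENSMUSG00000032854) encodes the enzyme that makes galactosylceramide, the major glycolipid of myelin. In build mm10 (GENCODE M21) Mobp spans chr9:120149707-120181484 and Cnp chr11:100574904-100591729, both on the plus strand. On the minus strand lie Mog (chr17:37010743-37023398), Mag (chr7:30899176-30914873), Mal (chr2:127633226-127656695), Opalin (chr19:41061710-41077113), Ugt8a (chr3:125865271-125938619) and Ermn (chr2:58045113-58052864). Counts are per gene and do not separate isoforms.

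Promoter sequences from RefSeq (build GRCm38.p6) were available for 8 of the 9 genes, all but Mbp, and the 250 bases before the transcription start were searched on both strands for short core motifs of these factors. The SOX core was searched as ACAAAG or ACAATG, and the MYRF core as CTGGCAC or CTGGTAC; no match of one overlapped a match of the other in these windows. A SOX core was present in 5 of the 8 genes (Mobp, Mag, Cnp, Opalin and Ermn), against 25.2% of all 32851 promoter windows of this length and 28.2% of genes. A MYRF core was present in 3 of the 8 (Mog, Mag and Cnp), against 5.9% of windows and 6.8% of genes. Mobp held 6 copies of the SOX core, all on the strand opposite to the gene. These matches describe letters in the sequence and are not shown to be binding sites.

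The stretches of the 5 genes with a SOX core are printed to show where the cores lie, and Mag and Cnp held both cores. Of the 3 genes that differed in time, Opalin and Ermn held a SOX core and Ugt8a held neither core in this window. Each printed stretch runs 5′ to 3′ on the gene's strand, ends before the first exon base of the gene in GENCODE M21, and has the SOX and MYRF cores in capitals. Mobp lay at chr9:120149492-120149706, plus strand. Mag lay at chr7:30914874-30915113, minus strand. Cnp lay at chr11:100574689-100574903, plus strand. Opalin lay at chr19:41077114-41077363, minus strand. Ermn lay at chr2:58052865-58053114, minus strand.
Mobp: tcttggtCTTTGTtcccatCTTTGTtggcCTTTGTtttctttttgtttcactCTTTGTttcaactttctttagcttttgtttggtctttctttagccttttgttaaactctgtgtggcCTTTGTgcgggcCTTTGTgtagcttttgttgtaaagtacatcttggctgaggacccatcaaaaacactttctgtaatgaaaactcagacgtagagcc
Mag: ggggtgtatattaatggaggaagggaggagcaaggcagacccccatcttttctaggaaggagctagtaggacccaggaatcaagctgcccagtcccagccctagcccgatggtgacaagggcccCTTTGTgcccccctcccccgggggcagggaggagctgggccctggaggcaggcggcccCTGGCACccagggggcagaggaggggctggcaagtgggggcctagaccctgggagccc
Cnp: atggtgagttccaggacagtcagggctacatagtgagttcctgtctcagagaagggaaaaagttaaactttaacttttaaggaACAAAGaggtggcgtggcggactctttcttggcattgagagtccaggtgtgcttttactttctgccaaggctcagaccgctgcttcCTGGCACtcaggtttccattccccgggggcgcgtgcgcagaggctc
Opalin: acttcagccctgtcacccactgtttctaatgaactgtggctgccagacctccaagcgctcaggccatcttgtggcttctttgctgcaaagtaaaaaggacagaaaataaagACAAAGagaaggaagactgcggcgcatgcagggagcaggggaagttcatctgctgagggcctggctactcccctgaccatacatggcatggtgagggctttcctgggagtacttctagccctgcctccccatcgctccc
Ermn: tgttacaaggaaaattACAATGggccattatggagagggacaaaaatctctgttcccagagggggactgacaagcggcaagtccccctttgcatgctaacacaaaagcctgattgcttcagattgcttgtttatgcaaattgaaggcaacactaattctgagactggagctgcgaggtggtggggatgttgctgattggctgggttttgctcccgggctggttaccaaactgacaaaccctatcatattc

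Libraries held 11866570 to 42135683 counts in all. Summed over the 9 genes, 13624 counts lay in the sparsest library, a vHipp library, and the smallest single value was 17 counts of Opalin, also in the vHipp. The strand setting of the counting is not given in the sources used here. Cnp shares 154 exon bases (4.23% of its exons) with Dnajc7 on the opposite strand and Ermn shares 237 (6.52%) with Galnt5, so without strand the reads from these stretches could not be assigned to 1 gene. A predicted gene, Gm20594, exceeded 1 CPM (a gene's counts per 1000000 counts of the library) in 21 libraries (19 SC and 2 CS). These libraries stood apart from the rest. Test calls that changed without them are given, and the descriptions by library include them. The 24 h and 30 d libraries also stood apart, in the shares of all genes given with that comparison.

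The 9 genes together took 1.24% ± 0.13 (SD, n = 31) of all counts in the VTA, 0.502% ± 0.074 (n = 42) in the CPu, 0.429% ± 0.076 (n = 39) in the NAc, 0.420% ± 0.268 (n = 41) in the PFC, 0.330% ± 0.083 (n = 38) in the BLA and 0.164% ± 0.081 (n = 39) in the vHipp. Levels below are in CPM with the library total adjusted by TMM, a scaling that sets the bulk of genes equal between libraries. Mbp ran from 5326 to 8283 CPM in the VTA, with a median of 7074. Its median was 2865 CPM in the CPu (1881 to 4203), 2306 in the NAc (1553 to 3252), 2037 in the PFC (727 to 6520), 1761 in the BLA (1189 to 3381) and 816 in the vHipp (384 to 2276). No VTA library overlapped with a CPu, NAc, BLA or vHipp library for Mbp, while the highest PFC libraries reached into the VTA range. The order of the region medians was the same for 8 of the 9 genes, and for Opalin the NAc stood above the CPu.

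**Figure D1:**
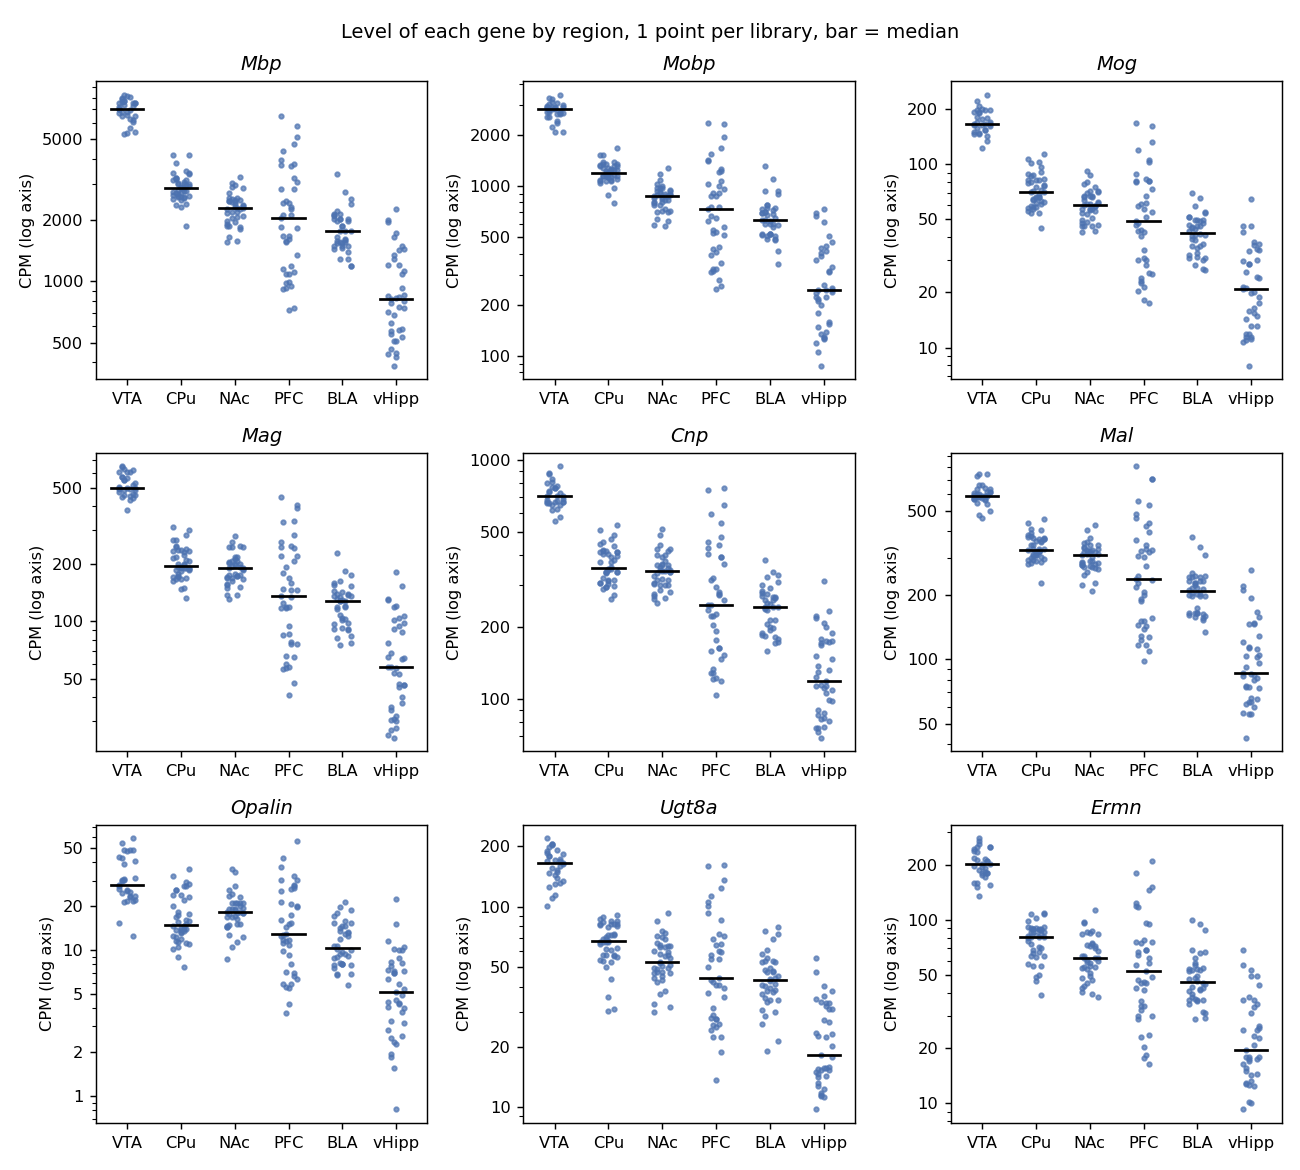
CPM of the 9 genes (log axis) in each of the 230 libraries, by region, with the median as a bar. The VTA has the highest median and the vHipp the lowest for every gene, and the PFC and vHipp have the widest ranges (Mbp 727 to 6520 CPM in the PFC).

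Per length of annotated exon, taken as the union over all transcripts of a gene, the order among the genes was steep. In the VTA, Mbp stood at 825 ± 100 (SD, n = 31) RPKM (CPM divided by the exon length in kilobases), Mobp at 405 ± 48, Mal at 215 ± 23 and Cnp at 197 ± 24. Mag (128 ± 17 RPKM), Mog (101.3 ± 15.4), Ermn (56.2 ± 10.3) and Ugt8a (35.9 ± 6.7) followed, and Opalin was lowest at 10.9 ± 4.0. In the vHipp the same scale ran from 113.3 ± 57.9 RPKM for Mbp to 2.10 ± 1.42 for Opalin (n = 39). The basic proteins of compact myelin led the list in the VTA, and the lipid enzyme and Opalin closed it.

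The 6 regions, ordered by the mean log2 CPM of the 9 genes, were VTA (8.80), CPu (7.64), NAc (7.43), PFC (7.14), BLA (6.94) and vHipp (5.86). Because the 9 genes set this order, each step below favours them being higher. The share of all genes beside each count was not favoured in this way. Each region was tested against the next with limma on voom weights, averaging over the 6 conditions with the mouse as a block, with Benjamini-Hochberg adjustment over 18927 genes. The first and the last step in the order held for all 9 genes. In the VTA against the CPu, 9 of 9 were higher, where 42.4% of all genes tested were higher; the log2 difference ran from 0.82 for Mal to 1.41 ± 0.12 (SE) for Ermn (adjusted p = 2.5e-23), a 2.65-fold difference. In the BLA against the vHipp, 9 of 9 were higher against 32.6% of all genes, from 0.94 for Cnp to 1.37 ± 0.12 for Mobp (adjusted p = 9.3e-22), a 2.58-fold difference. The median log2 difference of all genes was 0.01 at both of these steps.

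The middle of the order was closer. Of the 9 genes, 5 were higher in the CPu than in the NAc (Mbp, Mobp, Mog, Ugt8a and Ermn), against 28.7% of all genes; Mobp differed most, by 0.49 ± 0.12 on the log2 scale (adjusted p = 0.00019). Opalin was -0.15 ± 0.12 in that comparison (adjusted p = 0.28). In the NAc against the PFC, 6 of 9 were higher (all but Mbp, Ugt8a and Ermn), against 38.1% of all genes, with Mag at 0.47 ± 0.12 (adjusted p = 0.00034). The PFC and BLA were the nearest neighbours: Mal (0.26 ± 0.10, adjusted p = 0.024) and Opalin (0.30 ± 0.13, adjusted p = 0.035) were higher in the PFC, against 32.1% of all genes, and neither passed when the 21 Gm20594 libraries were left out (adjusted p = 0.066 and 0.11).

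Within mice, the outer steps were seen in nearly every animal. Of 28 mice with both regions, 28 had more of each of the 9 genes in the VTA than in the CPu. Of 32 mice with both, 29 to 31 had more of each gene in the BLA than in the vHipp. The PFC exceeded the BLA in only 19 to 23 of 36 mice, depending on the gene, which is the pair where most genes did not pass.

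The mix of the 9 genes was not the same everywhere. The log2 CPM of each gene was set against the mean of the other 8 in the same library, which removes the common level; the differences between regions are given as a description. Mobp stood highest in the VTA (2.96 ± 0.11, SD over libraries) and CPu (2.91 ± 0.14) and lowest in the vHipp (2.38 ± 0.21). Cnp ran the other way, from 0.76 ± 0.08 in the VTA to 1.26 ± 0.22 in the vHipp. The libraries of these regions overlapped, from 2.66 to 3.22 in the VTA and 1.94 to 2.77 in the vHipp for Mobp, and from 0.61 to 0.93 and 0.78 to 1.63 for Cnp.

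Mal and Opalin had their lowest relative level in the VTA. Mal stood at 0.47 ± 0.10 there against 0.82 to 0.93 in the other 5 regions. Opalin stood at -4.37 ± 0.50 in the VTA and -3.65 ± 0.37 in the NAc, its highest region on this scale. Ermn was the reverse, at -1.29 ± 0.29 in the VTA and between -1.66 and -1.54 elsewhere.

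Among mice of one condition, the 9 genes varied together, and their spread was not the same in every region. In the PFC the standard deviation within a condition was 0.79 to 0.94 on the log2 scale for the 9 genes, where the median gene had 0.18; this placed them at percentiles 98.7 to 99.3 of all genes with a mean of at least 1 CPM. In the vHipp it was 0.57 to 0.90, against 0.24 for the median gene. In the BLA, CPu, NAc and VTA the median over the 9 genes was 0.37, 0.26, 0.27 and 0.19. The deviation of each gene from its group mean correlated with the mean deviation of the other 8 at r = 0.96 to 0.99 over the 41 PFC libraries and at 0.87 to 0.99 over the 39 vHipp libraries. In the NAc this was 0.59 to 0.92 (n = 39) and in the VTA 0.66 to 0.92 (n = 31). These values share library and depth, and are descriptions.

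**Figure D2:**
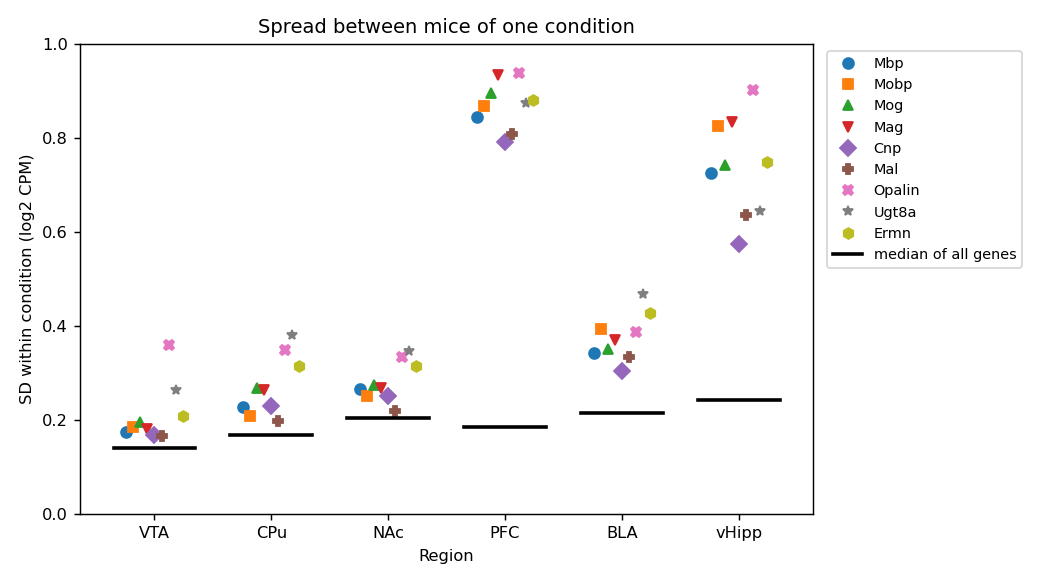
Standard deviation of log2 CPM between mice of one condition, for each of the 9 genes (symbols) and for the median of all genes (black bar), by region. All 9 genes lie between 0.79 and 0.94 in the PFC, where the median gene lies at 0.18.

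Spread over the libraries as a whole was mostly between regions. For 8 of the genes, 69.3% to 77.2% of the variance of log2 CPM lay between regions, 2.76% to 6.81% between conditions of a region and 19.8% to 25.5% between mice of a group. Opalin differed, with 55% between regions and 14.8% between conditions. The median gene had 56.4% and 7.65%.

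The level of the 9 genes in a mouse carried over between regions only in part. Over 38 mice with both libraries, the mean deviation of the 9 genes in the CPu and in the PFC correlated at r = 0.64 (Spearman 0.55), and at r = 0.56 without the 2 mice farthest from the median. For the PFC and BLA the value was 0.07 (36 mice) and for the NAc and vHipp -0.004 (35 mice). All 15 pairs of regions were computed, and CPu with PFC was the highest.

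Among the genes most like the 9, over all 230 libraries and 14685 genes, were Tmem88b (r = 0.98), Cldn11 (0.98), Fa2h (0.97), Bcas1 (0.97), Prr18 (0.97), Gjb1 (0.95), Tmem63a (0.94), Sept4 (0.94), Evi2a (0.94), Galnt6 (0.94) and Pdlim2 (0.93). The measure was the correlation of deviations from the region and condition mean with the mean deviation of the 9 genes. Cldn11 encodes the tight junction protein of the sheath, Fa2h the enzyme that hydroxylates myelin lipids, and Gjb1 a gap junction protein of oligodendrocytes. The summed level of 39 other genes of mature oligodendrocytes and myelin followed the 9 genes at r = 0.96 to 0.996, depending on the region.

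Marker sums of other cell types moved with the 9 genes in some regions. In the PFC the sum of 10 neuronal markers ran against them at r = -0.83 (6997 to 11390 CPM), the sum of 12 astrocyte markers with them at 0.60, and the sum of 7 oligodendrocyte precursor markers with them at 0.81. The sum of 10 choroid plexus and ependymal markers also ran with them in the PFC, at 0.86 (7.42 to 78.3 CPM). In the vHipp precursors (r = -0.62), astrocytes (-0.78) and microglia (-0.46) ran against them, and 3 neurofilament genes of large axons with them (0.79). The choroid plexus and ependymal sum ran there from 16.2 to 20350 CPM, with r = 0.57. The neuronal sum ran with the 9 genes in the vHipp (0.39) and NAc (0.33), and against them in the BLA (-0.55), CPu (-0.26) and VTA (-0.17). The part of these cell types in the spread of the 9 genes was not tested.

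Cocaine against saline self-administration at 24 h was compared within each region by edgeR's quasi-likelihood test, with Benjamini-Hochberg adjustment over all genes of the region. None of the 9 genes passed an adjusted p of 0.05 in any region, and the share of all genes called was 0% in the BLA, CPu, NAc, PFC and vHipp and 0.00585% in the VTA. DESeq2 and limma voom also called 0 of the 9. At an unadjusted p under 0.05 the count was 7 of 9 in the PFC and 0 of 9 in each of the other regions.

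The PFC had the largest difference between these 2 groups. Mbp in the S24 mice ran from 727 to 2857 CPM with a median of 1082 (n = 7), and in the C24 mice from 736 to 5150 with a median of 2560 (n = 8). Opalin ran from 5.53 to 30.5 CPM in S24 with a median of 11.7, and from 6.62 to 56.0 in C24 with a median of 26.5. Mag had medians of 94.04 CPM (41.0 to 220) and 177 (47.3 to 407). The groups overlapped for all 9 genes: the lowest mice of both groups lay close together, and 2 to 4 of the 8 C24 mice, depending on the gene, lay above the highest S24 mouse. Across the other conditions Mbp ran from 1190 to 6520 CPM in SS (median 2470, n = 7), from 1116 to 3796 in SC (median 2124, n = 7) and from 913 to 4735 in CC (median 1670, n = 7), and the 5 CS mice had 983, 1087, 1582, 2436 and 5808. For Mbp every pair of conditions overlapped, and the widest gap between medians was that of S24 and C24. SS also stood above S24 by edgeR, a comparison added after the data were seen, in which withdrawal time and injection differ too. Its median log2 fold change over the 9 genes was 1.08 (0.50 to 1.43, 9 of 9 positive). There 1 of 9 passed (adjusted p = 0.046), where 2421 of 16948 genes were called. Without the filter on low counts 0 of 9 passed.

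The log2 fold change of C24 against S24 in the PFC was positive for 9 of 9. It ran from 0.82 ± 0.47 (SE) for Ugt8a to 1.10 ± 0.47 for Opalin (adjusted p = 0.64 and 0.61). The median was 0.98, where the median of all genes was -0.01. Of all genes, 5.92% were higher in C24 at an unadjusted p under 0.05. The 7 members under that level were Mbp, Mobp, Mog, Cnp, Mal, Opalin and Ermn. The 9 values are not independent, since the genes followed one another closely in the PFC. Without the C24 mouse with the highest Mbp the log2 fold changes were 0.56 to 0.88, and without the S24 mouse with the highest Mbp they were 1.14 to 1.48. The lowest adjusted p in any of the 15 removals was 0.235.

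**Figure D3:**
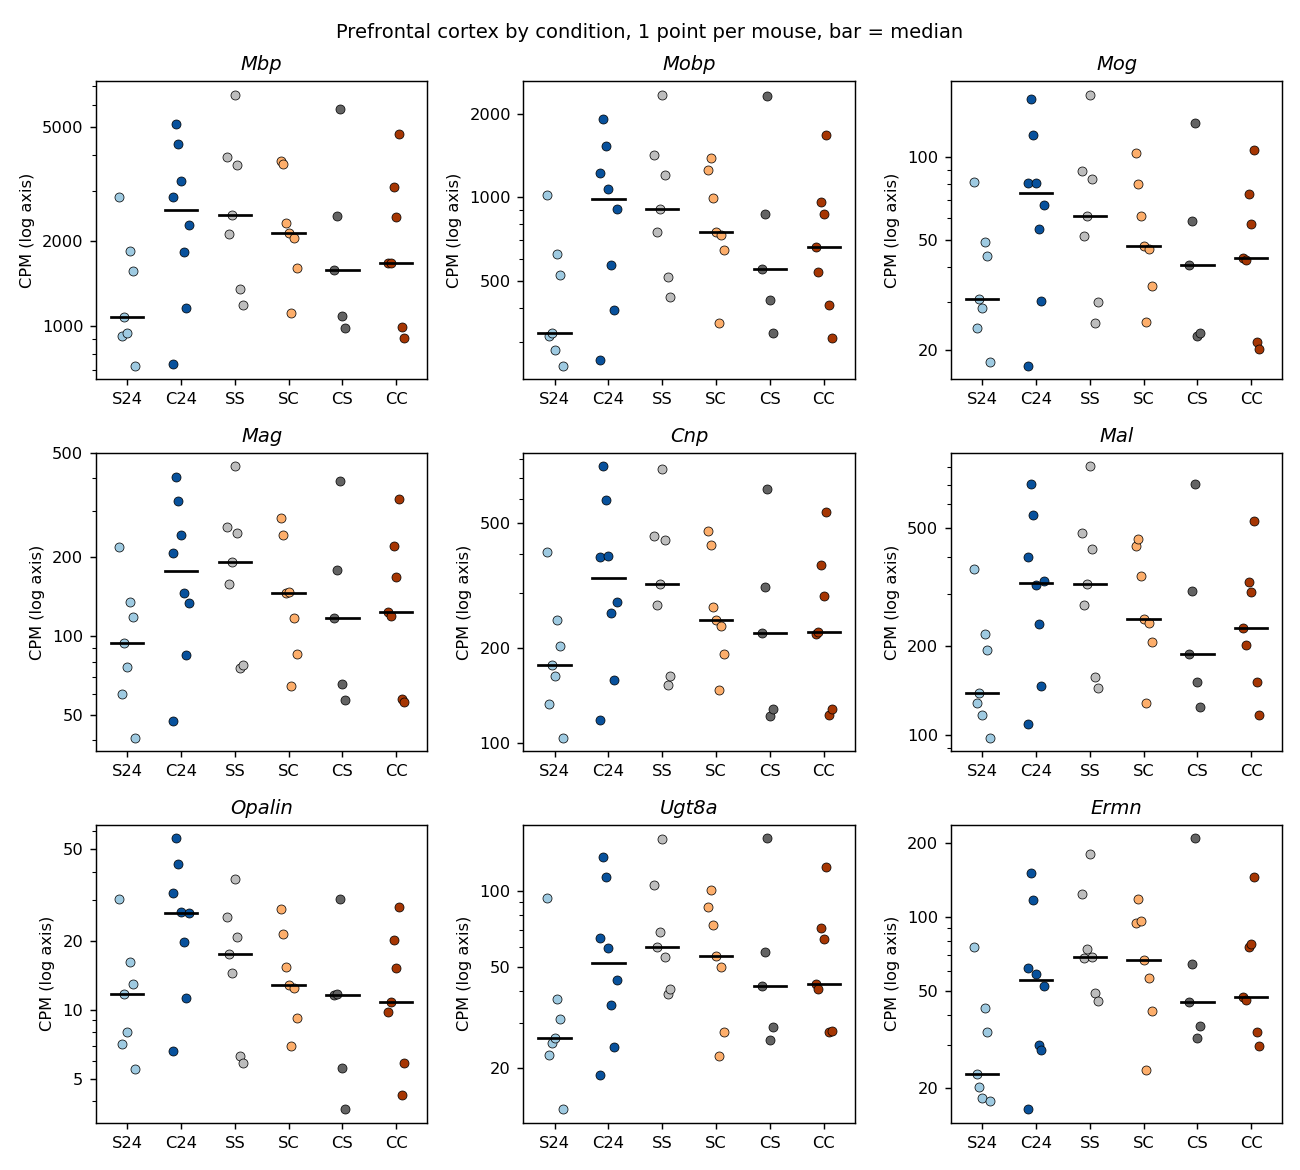
CPM (log axis) of the 9 genes in the prefrontal cortex, 1 point per mouse, by condition, with the median as a bar. The groups overlap for every gene, and Mbp spans 727 to 2857 CPM in S24 and 736 to 5150 in C24.

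Other oligodendrocyte genes had the same sign in this PFC comparison. Of 39 other mature oligodendrocyte and myelin genes, 39 were higher in C24, 16 at an unadjusted p under 0.05 and 0 after adjustment, with a median of 0.83. Of 11 transcription factors of the lineage, 11 were higher, with a median of 0.53 (Sox10 0.68 ± 0.33, Myrf 0.88 ± 0.40). Of 7 precursor markers, 6 were higher with a median of 0.15 (Pdgfra 0.20 ± 0.07). Of 10 neuronal markers 9 were lower, with a median of -0.10, and their sum was 8265 to 10660 CPM in C24 and 9351 to 11390 in S24. All 13 endothelial and pericyte markers were higher, with a median of 0.32, and their sum was 343 to 638 CPM in C24 and 305 to 533 in S24. Of 9 choroid plexus and ependymal markers tested, 7 were higher, with a median of 1.48, and the sum of the 10 was 10.2 to 53.5 CPM in C24 and 10.8 to 18.3 in S24. The 5 blood cell genes were all higher (median 0.40), as were 10 of 12 astrocyte markers (0.10), 9 of 10 microglial markers (0.12) and 8 of 8 markers of committed and newly formed oligodendrocytes (0.31). The endothelial and pericyte markers were also all higher in the CPu, NAc, vHipp and VTA (medians 0.20, 0.20, 0.28 and 0.28), and 3 of 13 were higher in the BLA. The 5 blood cell genes were higher in every region, with the largest median in the VTA (1.54). None of these markers passed the adjusted threshold. The part of these cell types in the PFC difference was not tested.

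The sign of this difference was not the same in every region. In C24 against S24 the log2 fold changes ran from 0.07 to 0.18 in the CPu and from 0.11 to 0.28 in the NAc (9 of 9 positive in each), from -0.33 to -0.21 in the vHipp (0 of 9 positive), and from -0.19 to 0.25 in the BLA and -0.19 to 0.09 in the VTA. The standard errors were 0.09 to 0.19 in the CPu, NAc and VTA and 0.29 to 0.44 in the vHipp, and none of these values had an unadjusted p under 0.05. Of 10 choroid plexus and ependymal markers, 0 were higher in C24 in the vHipp, with a median of -5.28 (7 under an unadjusted 0.05, 0 after adjustment), and their sum was 16.2 to 98.0 CPM in C24 and 18.2 to 18000 in S24. All 13 endothelial and pericyte markers (median 0.28) and all 10 microglial markers (0.26) had positive values there, with 0 called. Their part in the negative sign of the 9 genes was not tested. The difference between regions in this effect was tested by a moderated F test over the 6 regions, and no gene of the 18927 passed (adjusted p = 1 for each of the 9; 361 genes and 2 of the 9, Mobp and Mal, were under an unadjusted 0.05). Averaged over the 6 regions, 0 of 9 passed in limma, against 0.851% of all genes. Opalin was at 0.31 ± 0.12 (adjusted p = 0.39, unadjusted p = 0.014) and was the only one of the 9 under an unadjusted 0.05.

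**Figure D4:**
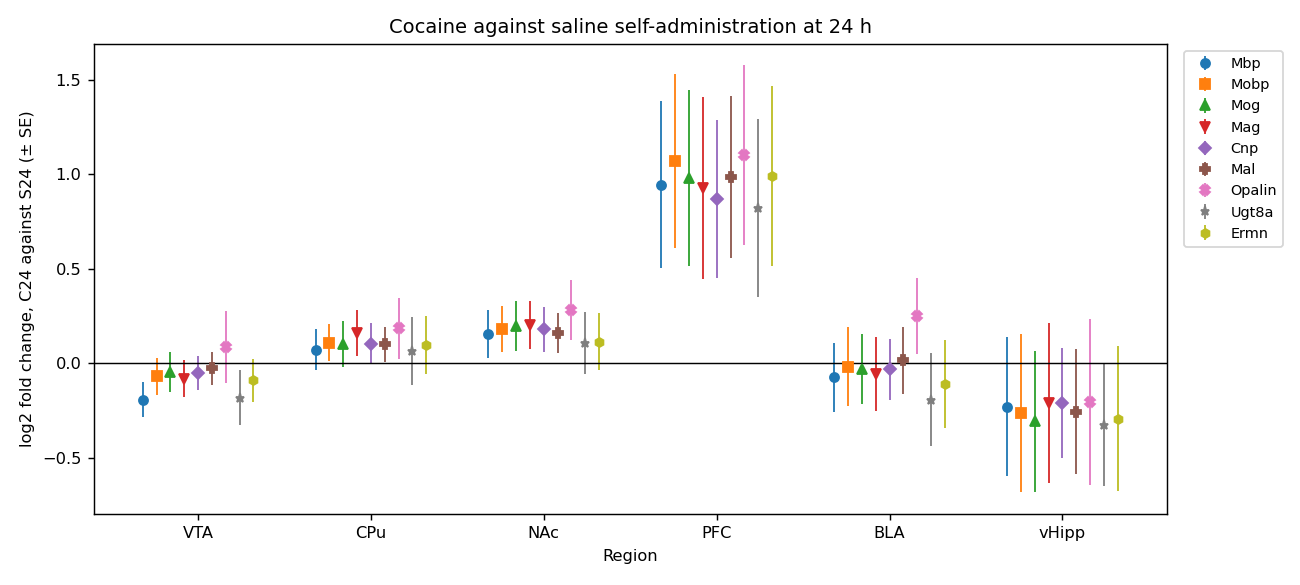
Log2 fold change of C24 against S24 with its standard error for each of the 9 genes (symbols), by region. The PFC values lie between 0.82 and 1.10, the vHipp values between -0.33 and -0.21, and none passed the adjusted threshold.

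At 30 d the comparisons between injected groups gave no call for the 9 genes in any region by edgeR, and none by DESeq2 or limma voom. These were the effect of earlier cocaine under a saline injection (CS against SS), of a cocaine injection in mice with earlier saline (SC against SS), of both (CC against SS), of the same injection in mice with earlier cocaine (CC against CS), and the interaction between injection and earlier intake. Of all genes, the share called was 0.00587% for SC against SS in the BLA, 0.0118% in the NAc and 0.00585% in the VTA, 0.00602% for the interaction in the CPu, and 0% in every other of these comparisons. Over the 36 comparisons of a region within 24 h or within 30 d, 12 of 324 member values lay under an unadjusted p of 0.05. Depending on the comparison, 1.14% to 14.8% of all genes lay under that level.

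Outside the PFC those 12 values were 5. In the BLA, CC against CS gave -0.46 ± 0.21 for Mag, -0.39 ± 0.18 for Cnp and -0.41 ± 0.19 for Mal (adjusted p = 0.91 for each), with all 9 genes negative. In the vHipp, Ugt8a was 0.81 ± 0.36 in CS against SS (adjusted p = 0.31) and -1.39 ± 0.52 in the interaction (adjusted p = 0.41). Ugt8a in the vHipp ran from 14.6 to 47.4 CPM in CS with a median of 32.7 (n = 6) and from 11.3 to 33.2 in SS with a median of 13.8 (n = 6), so the groups overlapped.

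Averaged over the 6 regions, 0 of 9 passed in each of these 5 comparisons, against 0.0581% of all genes for CS against SS, 0.111% for SC against SS, 0.0317% for CC against SS, 0% for CC against CS and 0.0423% for the interaction, and no value of the 9 was under an unadjusted 0.05. In CC against SS all 9 values were negative: Mog was at -0.18 ± 0.13, Cnp at -0.17 ± 0.11 and Ugt8a at -0.12 ± 0.13 (adjusted p = 0.76, 0.73 and 0.85).

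The 30 d groups that received saline were also set against the 24 h groups of the same self-administration, a comparison added after the data were seen and averaged over the 6 regions with limma. Withdrawal time, the injection and any difference in handling between the sets cannot be told apart here. The 9 genes split. Opalin fell by 0.43 ± 0.14 (SE) on the log2 scale in SS against S24 (adjusted p = 0.0094) and by 0.98 ± 0.15 in CS against C24 (adjusted p = 6.9e-09), a 1.97-fold difference. Ermn rose by 0.49 ± 0.13 (adjusted p = 0.0013) and 0.47 ± 0.14 (adjusted p = 0.0036). Ugt8a rose by 0.34 ± 0.13 in SS against S24 (adjusted p = 0.031) and was at 0.31 ± 0.13 in CS against C24 (adjusted p = 0.057). The other 6 did not pass in either average, with Mbp at 0.16 ± 0.12 and 0.04 ± 0.13. Within regions by edgeR, SS against S24 called 1 of 9 in the CPu, NAc, PFC and VTA, and 0 in the BLA and vHipp. There 430 to 2845 genes were called per region. CS against C24 called 4 of 9 in the CPu, so at least 1 of the other 6 passed there. The CPu count was 3 by limma voom and 2 by edgeR without the filter on low counts. In the VTA CS against C24 called 2 by edgeR, and 1 without the filter. It called 1 each in the BLA and NAc, and 0 in the PFC and vHipp. There 683 to 3762 genes were called, of 16609 to 17105 tested. Whether the fall of Opalin differed between cocaine and saline mice was not tested. By edgeR within regions, all 9 genes were positive for SS against S24 in the PFC (0.50 to 1.43), Opalin included. In the vHipp all 9 were negative (-0.83 to -0.17), Ermn and Ugt8a included. The moderated F test over regions gave an adjusted p of 0.053 to 0.19 for the 9 in SS against S24. There 1446 of 18927 genes passed, and all 9 were under an unadjusted 0.05, as were 4422 genes. In CS against C24 the adjusted p was 0.9995 for each.

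In the average over regions, 2 of 9 were higher and 1 of 9 lower in SS against S24, where 15% of all genes were higher and 16.6% lower. In CS against C24, 1 of 9 was higher and 1 of 9 lower, where 17.8% of all genes were higher and 18.6% lower. These counts are near the shares of all genes and are not a result about the 9 genes as a set. With 1 mean per mouse in place of the mouse block, Ermn (adjusted p = 0.013) was the 1 of 9 called in SS against S24, with Opalin at an adjusted p of 0.080 and Ugt8a at 0.12.

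By library, Opalin in the VTA ran from 27.8 to 58.7 CPM at 24 h with a median of 45.8 (n = 12) and from 12.6 to 39.3 at 30 d with a median of 24.8 (n = 19, all 4 injected groups). In the CPu it ran from 14.3 to 36.2 CPM (median 24.9, n = 16) and from 7.65 to 24.0 (median 13.4, n = 26). Ermn in the VTA moved the other way, from a median of 180.4 CPM (134.3 to 200.7) to 216.8 (170.8 to 278.6). The ranges overlapped in each case, and the 30 d medians of Opalin lay below the lowest 24 h library in these regions.

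Set against the other 8 genes of the same library, as a description, Opalin was lower at 30 d in all 6 regions, with mean differences of -0.84 in the VTA, -0.82 in the vHipp, -0.81 in the CPu, -0.71 in the PFC, -0.67 in the BLA and -0.59 in the NAc. In the CPu the Opalin libraries of the times did not overlap, by a narrow margin. The 16 libraries at 24 h ran from -3.93 to -3.27 and the 26 at 30 d from -4.94 to -3.95. Opalin overlapped in every other region, and each of the other 8 genes overlapped in all 6 regions. How many of all genes separate the times in this way was not tested. Ermn was higher by 0.45 to 0.57 and Ugt8a by 0.27 to 0.43 across the regions. Mog differed by -0.22 to -0.13. On this relative scale the shift of Opalin, Ugt8a and Ermn had the same sign in each region.

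**Figure D5:**
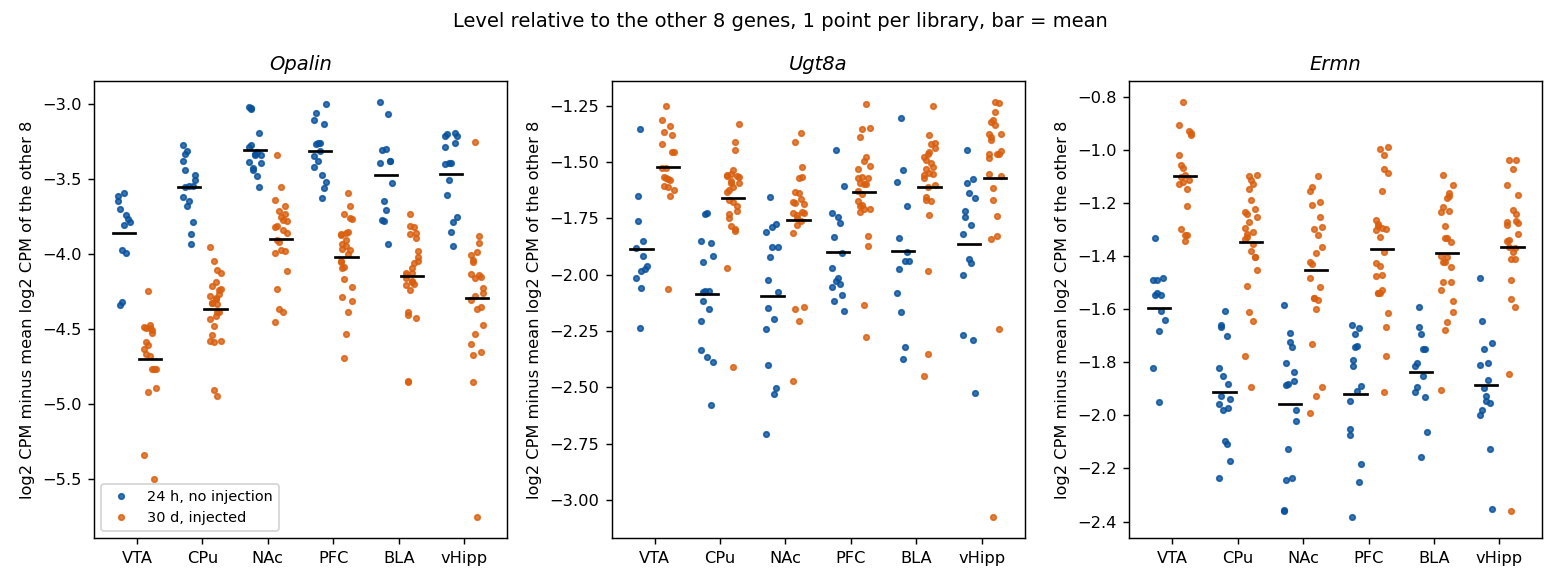
Log2 CPM of Opalin, Ugt8a and Ermn minus the mean log2 CPM of the other 8 genes, 1 point per library, at 24 h (blue) and 30 d (orange), by region, with the mean as a bar. Opalin lies lower at 30 d in all 6 regions, and Ermn and Ugt8a higher.

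Other genes of the lineage were also split in these comparisons. Of 39 other mature oligodendrocyte and myelin genes, 7 rose and 1 fell in SS against S24, where 15% of all genes rose and 16.6% fell. In CS against C24, 4 rose and 5 fell, where 17.8% of all genes rose and 18.6% fell. These counts are near or below the shares of all genes and are not a result about this list. Cryab, a small heat shock protein, rose by 0.81 ± 0.11 and 0.87 ± 0.11 (adjusted p = 3.9e-11 and 3.7e-11), and Anln by 0.45 ± 0.12 and 0.40 ± 0.12. Pllp, which encodes plasmolipin of the myelin membrane, fell by 0.27 ± 0.09 and 0.55 ± 0.10 (adjusted p = 0.015 and 1.1e-06). Of 11 transcription factors, Olig2 rose in both (0.38 ± 0.07 and 0.37 ± 0.08), and Sox10 (-0.22 ± 0.09) and Nkx6-2 (-0.42 ± 0.14) fell in CS against C24. Of 8 markers of committed and newly formed oligodendrocytes, 2 rose and 1 fell in SS against S24 (median 0.06), and 1 rose and 0 fell in CS against C24, where the other 7 had negative values (median -0.13). Gpr17, a receptor of this stage, was the gene that rose in both, by 0.43 ± 0.06 and 0.37 ± 0.07. Of 7 precursor markers, 3 rose (Neu4, Matn4 and Cacng4) and 1 fell in SS against S24 (median 0.14), and 0 rose and 1 fell in CS against C24 (median 0.03). The growth factor receptor Pdgfra was the gene that fell, by 0.12 ± 0.04 and 0.18 ± 0.04.

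Beside these, the 5 blood cell genes all fell, with a median log2 difference of -1.19 in SS against S24 and -1.21 in CS against C24. Of 23 genes of cholesterol synthesis, 14 and 12 fell. Of all genes, 16.6% and 18.6% fell, and 15% and 17.8% rose. Of 10 microglial markers, 5 rose and 0 fell in SS against S24, and 1 rose and 4 fell in CS against C24. Of 13 endothelial and pericyte markers, 2 rose and 3 fell in SS against S24, and 1 rose and 7 fell in CS against C24 (median -0.21). Of 12 astrocyte markers, 3 rose and 2 fell in each comparison. The part of these cell types or of another difference between the 24 h and 30 d sets in the split of Opalin and Ermn was not tested.

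Between regions, the transcription factors of the lineage did not all follow the 9 genes. In the VTA against the CPu, 10 of 11 were higher and 1 lower, where 42.4% of all genes were higher. Of the 39 other myelin genes, 37 were higher there and 1 lower. Myrf differed by 1.31 ± 0.11, Olig2 by 1.09 ± 0.07 and Sox10 by 0.91 ± 0.08. In the CPu against the NAc, where 5 of the 9 genes were higher, 0 of the 11 factors were higher and 4 were lower. The median of the factors was -0.12, where that of all genes was -0.003 and 28.7% of all genes were higher. Precursor markers were lower in the PFC than in the BLA for 6 of 7, with a median of -0.55 where that of all genes was -0.005. Of 23 genes of cholesterol synthesis, 22 were lower in the NAc than in the PFC, with a median of -0.82 where that of all genes was 0.02. This was the reverse of the 9 genes, of which 6 were higher there, as were 38.1% of all genes. The shares of all genes that were lower at these steps are not reported here, so these counts are descriptions.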

How the data were processed

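RNA of tissue from 6 brain regions was sequenced in 230 libraries of 45 mice; per the labels' protocols, ribosomal RNA was removed and a ScriptSeq Complete Gold kit was used, while the molecule field of the labels reads polyA RNA. The authors deposited 1 table of raw counts by Ensembl gene and library; the submitters' processing notes name HTSeq, limma and the build mm10, and the aligner and annotation release are not given in the sources used here. The number in each library title was taken as the mouse, so that libraries of 1 number from different regions are from 1 animal.

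Symbols came from GENCODE M21 (42462 of 43346 identifiers, 98.0%). Each region was fitted with edgeR 4.0.16 in R 4.3.3 (filterByExpr with count 10 and total 15 as minima, TMM, robust quasi-likelihood F test). Contrasts averaged over regions and region pairs came from limma 3.58.1 with voom weights over 36 groups, with the mouse as a block. Adjustment was by Benjamini and Hochberg over all genes tested, at a threshold of 0.05. RPKM used the union of exons. The scripts were tested on simulated data. Deviations from the group means served to check the pairing: across genes, libraries of 1 mouse correlated at a median of 0.087 between regions (486 pairs), and those of different mice of a condition -0.011 (3228 pairs). The consensus correlation was 0.040.

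DESeq2 1.42.0, limma voom, no filter, DESeq2 size factors, no mouse block, 1 mean per mouse and removal of libraries were the alternatives. The 9 genes and all gene lists were chosen with earlier results of these data known. All 9 genes are named; other genes are named by rank of likeness, or from the lists if they passed a test or came first in the list, and not every gene that this rule gives is reported here. The comparisons of 30 d with 24 h and the within-mouse differences were added after the data were seen. Lhfpl3 and Pmp2 of the marker lists were not analysed here.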

Additional observations from a re-analysis of the deposited data

Results flagged for a closer look

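In groups of 4 to 10 libraries, the highest or lowest library was compared with its nearest neighbour by Dixon's ratio for each of the 9 genes. Of 315 such sets, 11 had a library that stood apart, from 5 libraries; about 1 in 20 sets is marked by chance, and the genes of a library are not independent.

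In the BLA, 1 SC library had 1102 CPM of Mobp, where the next highest had 647, and 339 CPM of Mal, where the next had 215. In the CPu, 1 SS library had 4203 CPM of Mbp, 106.3 of Mog and 312 of Mag, against 3014, 72.3 and 210 in the next library. Also in the CPu, 1 C24 library was lowest, with 44.9 CPM of Mog, 132.1 of Mag, 272 of Cnp and 229.5 of Mal, where the next lowest had 81.6, 222, 393 and 331. In the NAc, 1 CC library had 618.6 CPM of Mobp, against 849 in the next lowest. In the VTA, 1 SS library had 724.3 CPM of Mal, against 613 in the next highest.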

How the results depend on the processing

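No member passed in any of the 36 comparisons of a region under DESeq2, limma voom, no filter on low counts, removal of the 21 Gm20594 libraries, or removal of single libraries from groups of up to 5 and from PFC C24 and S24; the count was 0 at its lowest and highest. No value reversed its sign past a threshold. In SS against S24 averaged over the regions, 3 of 9 passed, and 1 with 1 mean per mouse. Within the PFC, SS against S24 called 1 by edgeR, and 0 without the filter on low counts. Within the CPu it called 1 by edgeR and 2 by DESeq2. For CS against C24, the CPu count of 4 was 3 by limma voom and 2 without the filter. The VTA count of 2 was 1 without the filter. In the CPu against the NAc 5 passed, and 3 without the filter on low counts (Mog at an adjusted p of 0.056, Ugt8a at 0.061). In the PFC against the BLA 2 passed, 1 without the filter, 0 without the Gm20594 libraries and 0 with within-mouse differences. Without the replicate block, Ugt8a passed in CS against C24 (0.32, adjusted p = 0.037), as it did without the Gm20594 libraries (0.34, adjusted p = 0.038); the mouse block changed no other call. With within-mouse differences as the block, Mal passed in the CPu against the NAc (0.16, adjusted p = 0.0019). Why these calls moved was not tested. The smallest count behind any member value was 17, of Opalin in the vHipp.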

Other observations

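Genes that ran against the 9, by the same measure over 230 libraries and named after their values were seen, were C2cd4c (r = -0.63), Mamld1 (-0.63), Apaf1 (-0.61), Smad3 (-0.60) and Slc2a3 (-0.60). In the PFC alone Slc2a3, a glucose transporter of neurons, stood at -0.84 and Smad3, a mediator of TGF-beta signalling, at -0.80. These are descriptions over libraries that share region and depth.

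Among markers of committed and newly formed oligodendrocytes, Gpr17 and Enpp6 had different region orders. Gpr17 had a mean of 83.3 CPM in the BLA, 75.5 in the NAc, 71.98 in the VTA, 65.7 in the PFC, 64.5 in the CPu and 60.1 in the vHipp. Enpp6, an enzyme of the same stage, had the region order of the 9 genes, with 15.6 CPM in the VTA, 7.96 in the CPu, 6.24 in the NAc, 5.91 in the PFC, 3.97 in the BLA and 2.11 in the vHipp. The sum of the 8 markers followed the 9 genes at r = 0.96 in the PFC and 0.20 in the BLA.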
